A study of Mus musculus with 6 samples.

Results

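The mitochondrial ribosomal protein genes were described in primary myoblasts, the dividing progenitors of muscle fibres kept in culture, from WT mice and from mice labelled eIF5A knockout. Members were the protein-coding rows of the deposited gene table whose symbol starts with Mrpl or Mrps followed by a digit, which gave 78 of 54532 genes. The rule used names only and no measured value. Of the members, 51 encode proteins of the large subunit and 26 proteins of the small subunit. Mrps36 carries the name but encodes a component of the 2-oxoglutarate dehydrogenase complex. The 3 WT libraries and the 3 libraries labelled eIF5A-KO came from hind-limb muscle of 3-week-old mice, taken after 2 days of culture in medium with 10% fetal bovine serum, with FGF at 10 ug/ml in both groups. In the study's methods the deletion is a floxed eIF5A allele, recombined by a tamoxifen-inducible Cre expressed from the Pax7 locus. Pax7 is expressed in satellite cells, whose progeny inherit a recombined allele. How far the allele was recombined in the cultured cells was not measured in these tables. The study's text calls the controls of the cultured myoblasts WT littermates, and for other experiments gives controls with and without the Cre allele, so whether the WT mice here carried Cre is not known. The study describes the sequencing as triplicate experiments and does not say whether these were separate animals or cultures, so the p-values measure the spread between these libraries, which may be technical.

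Mitochondria translate the few proteins encoded on their own DNA, all of them in mammals subunits of the respiratory chain and ATP synthase, on a ribosome of their own. Its 2 ribosomal RNAs are transcribed inside the organelle, while every protein is encoded in the nucleus, made in the cytosol and imported. Many of these proteins descend from bacterial ribosomal proteins, and others were gained in the mitochondrial lineage. Muscle depends on this machinery for oxidative metabolism, and inherited defects in several members cause respiratory chain disease in people.

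Total counts ranged from 16281216 to 17734551 per library. The transcript of the targeted gene did not separate the groups: Eif5a had 1600, 985 and 1237 CPM (counts relative to the TMM-adjusted size of each library) in the WT libraries and 1363, 1457 and 1058 CPM in the libraries labelled eIF5A-KO. Its log2 fold change was 0.02 (edgeR quasi-likelihood test, adjusted p = 0.993). The labels are therefore kept as labels throughout. For satellite cells the study reports a successful knockout, from RT-qPCR of the transcript and immunostaining of the protein. The counts used here do not measure protein. All 11 myogenic markers had counts in every library, with a summed level of 793 to 1979 CPM in WT and 755 to 1308 CPM in the libraries labelled eIF5A-KO. All 8 endothelial, 8 fibroblast, 8 mural and 8 macrophage markers also had counts in every library. Summed endothelial markers reached 1196 to 2402 CPM in WT and 2042 to 3109 CPM in the other group, fibroblast markers 2965 to 3612 and 2906 to 3712 CPM, and macrophage markers 61.6 to 133 and 66.8 to 164 CPM. Summed mural markers ran from 371 to 628 CPM in WT and from 722 to 784 CPM in the libraries labelled eIF5A-KO, with no overlap. By gene, 9 of the 11 myogenic markers had lower means in the libraries labelled eIF5A-KO (median log2 fold change -0.36), and 3 of them were lower at an unadjusted p under 0.05. Higher means were found for 8 of 8 endothelial (median 0.39), 8 of 8 mural (0.52), 6 of 8 macrophage (0.33) and 3 of 8 fibroblast markers (-0.12), with 1, 4, 1 and 2 of them higher at that limit. Over all tested genes the shares past it were 2.74% higher and 4.02% lower. After adjustment 1 of these markers passed, the mural gene Myh11, a smooth muscle myosin (log2 fold change 1.52, edgeR adjusted p = 0.0486), a call that 12 of 17 alternative fits did not make (adjusted p from 3.72e-10 to 0.738). The part of this mixture in the values given next was not tested. In such bulk samples, fewer cells of a type and less RNA per cell cannot be told apart.

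The members share features that were read from the reference and not from the libraries. They lie on 17 chromosomes, and 33 of the 78 have the start of a protein-coding gene on the opposite strand within 1000 bases of their own start (42.3%), against 10.8% of the 22046 protein-coding genes of the table. RefSeq promoters (GRCm38.p6, 250 bases before to 50 after the start) were matched for 69 members. Motifs were searched by their letters on both strands over all 300 bases. The NRF1 motif, GCGCA and GCGC separated by any 1 base, was in 13 member promoters (18.8%) and in 4.60% of all 32851 promoters of that length. NRF1 is a transcription factor of nuclear genes for mitochondrial proteins. The GABPA motif ACTTCCGG was in 15.9% of member promoters and 3.89% of all, and its core CCGGAA, which overlaps it, in 56.5% and 14.9%. GABPA, also called NRF2 in this field, is an ETS factor of the same gene class. The YY1 motif AANATGGC was in 30.4% and 6.05%. In contrast, the E-box CACGTG was in 7.25% of member promoters and 7.15% of all, and TATAAA in 5.80% and 13.6%. Median GC content was 58.3% in member promoters and 52.7% in all. A match describes letters and is not a binding site. The 250 bases before the start are shown for members that hold NRF1 (Mrpl45, Mrpl12), GABPA (Mrpl3, Mrps22) or YY1 (Mrps12) letters, and for Mrps6 and Mrps18b, the members with the smallest p-values, which hold none of them in these 250 bases. Matches in the 50 bases after the start are counted above and not shown. Capitals mark the NRF1, GABPA, GABPA core and YY1 letters, read 5′ to 3′ along the gene's strand.
Mrpl45 (chr11:97315466-97315715, plus strand): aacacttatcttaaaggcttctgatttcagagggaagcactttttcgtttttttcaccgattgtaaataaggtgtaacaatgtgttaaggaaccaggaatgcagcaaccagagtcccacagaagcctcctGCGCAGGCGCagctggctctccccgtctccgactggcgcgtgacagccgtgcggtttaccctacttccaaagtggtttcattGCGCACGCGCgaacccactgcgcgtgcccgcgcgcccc
Mrpl12 (chr11:120484387-120484636, plus strand): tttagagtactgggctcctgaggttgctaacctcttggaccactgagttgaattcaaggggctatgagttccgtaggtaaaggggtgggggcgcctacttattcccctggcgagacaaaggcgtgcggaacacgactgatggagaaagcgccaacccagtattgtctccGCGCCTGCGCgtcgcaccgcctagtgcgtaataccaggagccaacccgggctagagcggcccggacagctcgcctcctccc
Mrpl3 (chr9:105053018-105053267, plus strand): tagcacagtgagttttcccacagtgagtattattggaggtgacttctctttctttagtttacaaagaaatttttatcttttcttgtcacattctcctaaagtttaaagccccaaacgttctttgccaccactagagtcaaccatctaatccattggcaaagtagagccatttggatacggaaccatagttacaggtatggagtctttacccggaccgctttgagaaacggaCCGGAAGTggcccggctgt
Mrps22 (chr9:98601680-98601929, minus strand): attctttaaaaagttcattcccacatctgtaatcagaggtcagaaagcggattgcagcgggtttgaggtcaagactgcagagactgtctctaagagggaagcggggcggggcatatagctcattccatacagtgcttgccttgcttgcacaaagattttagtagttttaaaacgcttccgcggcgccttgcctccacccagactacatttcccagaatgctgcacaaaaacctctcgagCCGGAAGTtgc
Mrps12 (chr7:28741822-28742071, minus strand): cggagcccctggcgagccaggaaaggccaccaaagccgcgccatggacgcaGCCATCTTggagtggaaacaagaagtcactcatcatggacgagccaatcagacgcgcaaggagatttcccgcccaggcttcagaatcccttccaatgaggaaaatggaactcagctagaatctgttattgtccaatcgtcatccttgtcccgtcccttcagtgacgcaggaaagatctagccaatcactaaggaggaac
Mrps6 (chr16:92058086-92058335, plus strand): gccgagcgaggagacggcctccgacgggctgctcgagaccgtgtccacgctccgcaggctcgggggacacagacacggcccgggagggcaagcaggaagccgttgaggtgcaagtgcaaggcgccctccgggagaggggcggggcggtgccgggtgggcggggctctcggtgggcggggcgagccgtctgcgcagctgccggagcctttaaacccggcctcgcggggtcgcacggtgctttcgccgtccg
Mrps18b (chr17:35916441-35916690, minus strand): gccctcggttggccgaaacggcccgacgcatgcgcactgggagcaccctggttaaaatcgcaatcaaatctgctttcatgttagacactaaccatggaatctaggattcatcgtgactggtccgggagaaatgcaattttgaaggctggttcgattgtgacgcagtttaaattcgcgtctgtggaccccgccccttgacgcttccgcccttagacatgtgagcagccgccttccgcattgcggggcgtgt

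Levels between genes were compared per length, as FPKM (fragments scaled to gene length and library size, as deposited). Of the 78 members, 77 passed the expression filter, with between 266 and 2433 counts in every library. The mean FPKM over 6 libraries ran from 3.90 to 85.1, a 21.8-fold range with a median of 21.7, and 52 of the 77 lay within 2-fold of that median. The median of all 14679 tested genes was 5.14 FPKM. The 5 highest were Mrpl52, Mrps21, Mrpl34, Mrpl54 and Mrpl28. Mrpl52, a large subunit protein without a bacterial counterpart, had 91.8 ± 27.4 FPKM in WT (SD, n = 3) and 78.4 ± 12.5 FPKM in the libraries labelled eIF5A-KO. Mrps21, of the small subunit, had 75.9 ± 19.8 and 78.2 ± 15.7 FPKM. The spreads of these neighbours over libraries overlapped, as did those of Mrpl34 (63.3 ± 9.64 FPKM in WT) and Mrpl54 (60.7 ± 18.1). The genes were read in the same libraries, and by library the order was not tested. Mrpl52 had 119.7, 64.97 and 90.66 FPKM in WT, against 96.07, 56.45 and 75.24 FPKM for Mrps21. In the libraries labelled eIF5A-KO it had 85.84, 85.36 and 63.88 FPKM, against 91.32, 82.53 and 60.8 FPKM. Mrpl28 had a mean of 60.8 FPKM over the 6 libraries. The 5 lowest were Mrpl19, Mrps10, Mrps25, Mrpl48 and Mrps35. Their WT levels ran from 6.32 ± 1.00 FPKM for Mrpl19 to 4.03 ± 0.838 FPKM for Mrps35. Mrps25 shares 69.8% of its exon bases with Nr2c2, and since the library kit does not mark strand, reads there cannot be assigned to either gene. The median level was 23.4 FPKM for large subunit members and 15.8 FPKM for small subunit members. For most members the deposited length equals the exon bases of all annotated transcripts together.

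**Figure D1:**
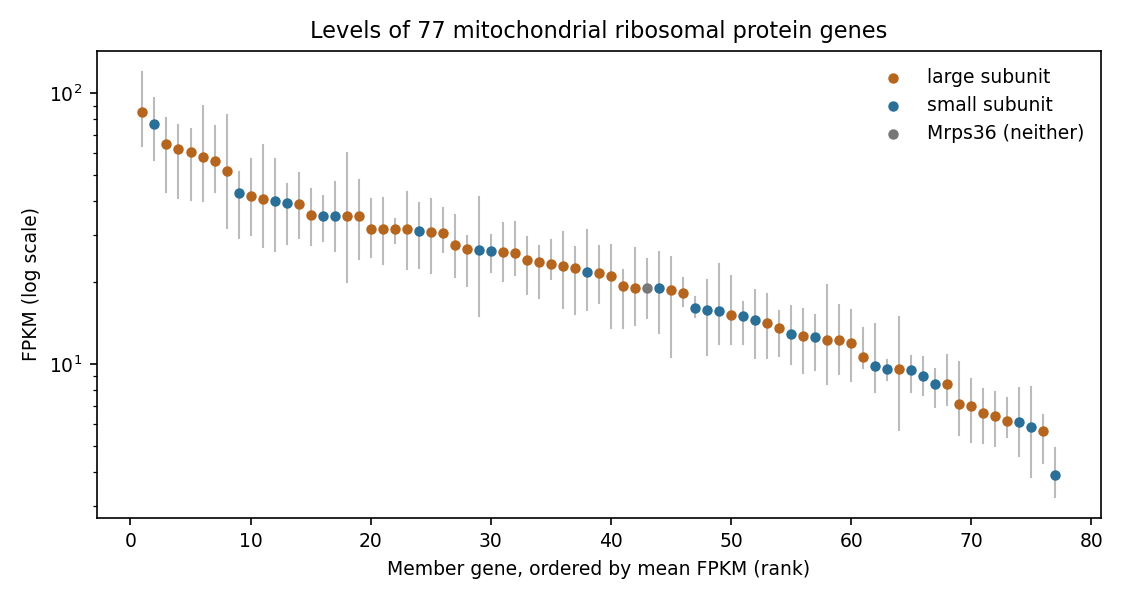
Mean FPKM (log scale) of the 77 tested members, ordered by rank and coloured by subunit, with grey lines from the lowest to the highest of the 6 libraries. Levels fall from 85.1 FPKM for Mrpl52 to 3.90 FPKM for Mrps35, and the lines of neighbours overlap.

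Mrpl53, a large subunit gene (chr6:83109040-83109939), was the member outside the test. It had 0 counts in all 6 libraries. It shares 88.0% of its exon bases with Gm42688 and Ccdc142os, and Gm42688 itself had 0.371 to 0.769 CPM. How reads over shared bases were counted is not given in the sources used here, so that 0 is a value of the table and not a measurement of absence.

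No member changed between the groups by the edgeR quasi-likelihood test with Benjamini-Hochberg adjustment over all 14679 genes. The count was 0 of 77 at adjusted p under 0.05, beside 3 genes in the whole table (0.0204%), a number that ran from 0 to 249 over the alternative fits, and the smallest adjusted p of a member was 0.767. At an unadjusted p under 0.05 it was also 0 in each direction, where 2.74% of all tested genes were higher and 4.02% lower. DESeq2 called 0 members after adjustment, beside 0.6% of all genes, and 1 (Mrps6) as higher at an unadjusted p under 0.05, beside 2.88%. The study's criterion, over 2-fold with an unadjusted p under 0.05, held for 0 members and for 1.85% of all genes. Of the members, 35 had a higher and 42 a lower mean in the libraries labelled eIF5A-KO, with a median log2 fold change of -0.02, beside -0.01 over all tested genes. Fold changes ran from -0.30 to 0.57. The 95% interval lay within 2-fold in both directions for 75 members and within 1.5-fold for 33. Changes inside these intervals are not excluded.

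**Figure D2:**
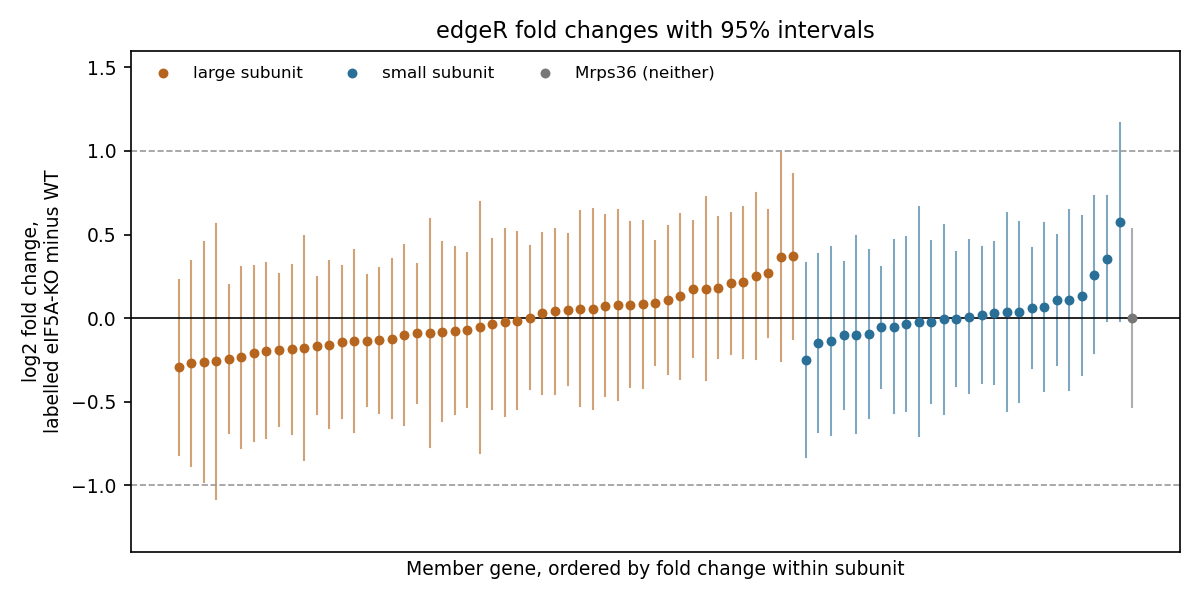
Log2 fold change (labelled eIF5A-KO minus WT) of the 77 tested members, with 95% intervals computed from the edgeR F statistic, grouped by subunit. Dashed lines mark 2-fold. Every interval includes 0, and 75 of the 77 lie between the dashed lines.

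By subunit, the 50 tested large subunit members had a median log2 fold change of -0.05 (22 higher, 28 lower) and the 26 small subunit members of 0.001 (13 higher, 13 lower). Within the large subunit the median was -0.08 for the 31 bacterial-type members and 0.06 for the 19 tested members specific to mitochondria. Within the small subunit it was 0.01 for 17 and -0.04 for 9. Without WT replicate 1 the large and small subunit medians were 0.19 and 0.20, and without WT replicate 2 they were -0.22 and -0.14. On the members with no shared exon bases and no copy, the bacterial-type large subunit median was 0.06. The 31 members that share no exon bases with another gene and have no near-identical copy had a median of 0.02, and the 46 other tested members of -0.04. The 24 tested members with the GABPA core in the 250 bases before the start had a median of -0.02, as did the 10 with the NRF1 motif. None of these groups held a member past either threshold.

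Mrps6, a small subunit protein of bacterial type (chr16:92058270-92112227), had the smallest p-value. It was at 40.7, 23.4 and 33.8 CPM in WT and 63.9, 44.9 and 36.9 CPM in the libraries labelled eIF5A-KO. The groups overlapped, because WT replicate 1 exceeded the third library of the other group. Its log2 fold change was 0.57 (SE 0.26, edgeR adjusted p = 0.767), with an interval from -0.02 to 1.17. The value was 0.34 without replicate 1 of the libraries labelled eIF5A-KO and 0.77 without WT replicate 1. The gene spans Slc5a3, a myo-inositol transporter, and shares 19.9% of its exon bases with it and Gm49711.

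The Mrps18 genes are 3 paralogs of bacterial S18. Mrps18b and Mrps18c proteins sit in the small subunit and the Mrps18a protein in the large one. Mrps18b (chr17:35910379-35916389) was at 27.2, 24.9 and 31.1 CPM in WT and at 35.7, 35.5 and 35.3 CPM in the libraries labelled eIF5A-KO. It was the 1 member of 77 (1.30%) whose groups did not overlap, all higher, where 5.68% of all tested genes lay apart in that direction. In the lower direction the members numbered 0, and the share of all genes was 6.83%. Its log2 fold change was 0.35 (SE 0.17, edgeR adjusted p = 0.777). Gm16279 overlaps 30.5% of its exon bases. Mrps18a was at 84.1, 50.7 and 71.3 CPM in WT and 103, 88.5 and 75.2 CPM in the other group, with overlap and a log2 fold change of 0.37 (interval -0.12 to 0.86). Mrps18c was at 28.2, 14.1 and 19.8 CPM in WT and 22.6, 18.9 and 20.3 CPM in the other group, which lay inside the WT range. Its log2 fold change was -0.01 (interval -0.57 to 0.56).

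Of the other members with small p-values, Mrpl38, Mrpl58 and Mrps34 had higher means in the libraries labelled eIF5A-KO, and Mrpl47 and Mrpl50 lower ones. Mrpl38, of the large subunit, had 71.3 ± 4.10 CPM in WT and 85.8 ± 11.3 CPM in the other group (log2 fold change 0.27, edgeR adjusted p = 0.863). Mrpl58, a peptidyl-tRNA hydrolase that frees stalled mitochondrial ribosomes and is also built into the large subunit, had 71.3, 35.7 and 58.4 CPM in WT and 77.7, 83.1 and 52.1 CPM in the other group. WT replicates differed by 2.00-fold for it. Mrps34, a small subunit protein in which mutations impair mitochondrial translation, had 24.5 ± 5.23 and 29.3 ± 4.51 CPM. It shares 77.8% of its exon bases with Mapk8ip3 and Nme3, where reads of the genes cannot be told apart. Mrpl47 had 45.6, 24.3 and 34.8 CPM in WT and 27.1, 27.1 and 31.0 CPM in the other group, with a log2 fold change of -0.30 (interval -0.82 to 0.23). Mrpl50 had 59.6 ± 13.1 and 50.3 ± 2.59 CPM. The libraries of each of these members overlapped between the groups.

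Members with a known part in decoding, the stalk or assembly had intervals of the log2 fold change that spanned no change. Mrps12, the protein of the decoding centre, had a log2 fold change of 0.01 (interval -0.45 to 0.47). Of the stalk and its base, Mrpl10 had 0.09 (interval -0.28 to 0.46), Mrpl11 had 0.08 (-0.41 to 0.57), and Mrpl12, which also binds the mitochondrial RNA polymerase, had -0.26 (-0.98 to 0.46). Mrpl3, near the peptidyl transferase centre, had -0.17 (-0.58 to 0.25). Mrpl45, close to the exit of the nascent chain, had 0.21 (-0.21 to 0.63), and Mrpl44, with an RNase III fold, had -0.14 (-0.53 to 0.26). Mrps22 had -0.15 (-0.68 to 0.38) and Mrps30, which despite its name belongs to the large subunit, had 0.18 (-0.24 to 0.60). Mrps36 was at 31.5, 20.4 and 21.6 CPM in WT and 29.4, 25.3 and 18.9 CPM in the other group, with an interval of the log2 fold change from -0.53 to 0.53. It has 8 near-identical copies in the annotation.

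The summed level of the members varied among the WT libraries, while the group means were close to each other. The members' summed level was 5128 CPM in WT replicate 1, 3066 CPM in replicate 2 and 3994 CPM in replicate 3, and 4302, 4276 and 3563 CPM in the libraries labelled eIF5A-KO. The group means were 4063 ± 1033 CPM and 4047 ± 419 CPM (SD, n = 3), a ratio of 0.996. The highest WT library exceeded the lowest by 1.67-fold, against 1.21-fold in the other group. As a share of all counts the members took from 0.326% to 0.477% in WT and from 0.369% to 0.418% in the libraries labelled eIF5A-KO. Large subunit members summed to 2861 ± 755 and 2826 ± 304 CPM, and small subunit members to 1177 ± 272 and 1197 ± 110 CPM.

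**Figure D3:**
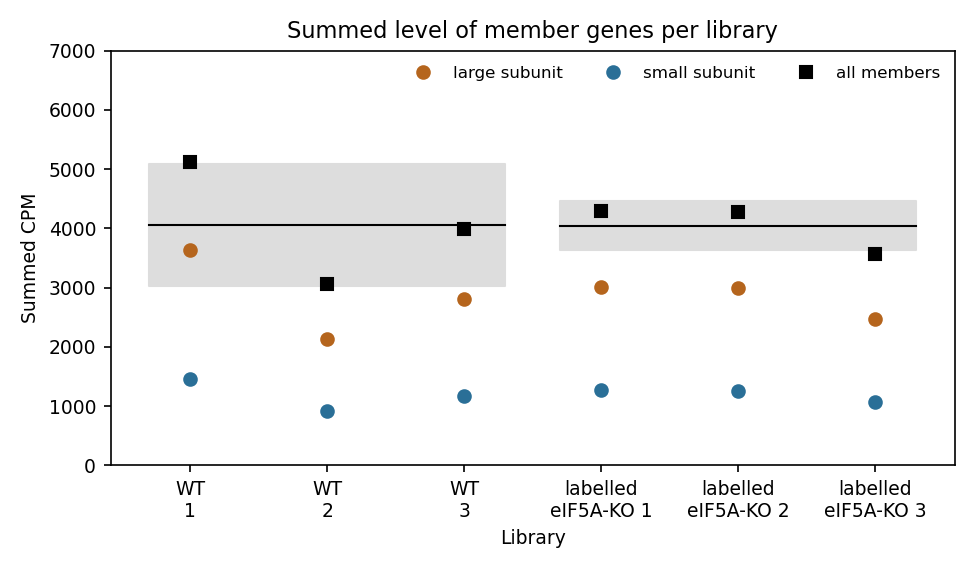
Summed CPM of all 78 members (black squares), of large subunit members and of small subunit members in each of the 6 libraries. Horizontal lines and grey bands give the mean and SD of the all-member sum in each group, 4063 ± 1033 CPM in WT and 4047 ± 419 CPM in the libraries labelled eIF5A-KO.

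Single members followed the sum. Of the 77, 58 were highest in WT replicate 1 and 62 lowest in WT replicate 2, and 48 were both. Over all tested genes, 27.4% were highest in WT replicate 1 and 22.2% lowest in WT replicate 2. WT replicate 1 exceeded WT replicate 2 in 76 of 77 members, and WT replicate 3 lay between them in 71. The exception was Mrps2, with 44.0 and 44.9 CPM. Of the other group, replicate 3 was the lowest in 59 members. The median deviation of a member from its mean over the libraries, on the log2(CPM + 1) scale, was 0.35 in WT replicate 1, -0.38 in WT replicate 2 and 0.004 in WT replicate 3. It was 0.08, 0.10 and -0.14 in the libraries labelled eIF5A-KO. That of all tested genes was between 0.001 and 0.009 in each library, where the TMM scaling over these genes keeps it small. Highest and lowest WT library differed by a median of 1.67-fold per member, from 1.12-fold for Mrpl38 to 2.62-fold for Mrpl33. The largest SDs over the libraries were those of Mrpl14 (0.55), Mrpl33 (0.50) and Mrpl12 (0.48). Mrpl12 was at 129, 58.1 and 72.6 CPM in WT and 79.1, 88.6 and 48.8 CPM in the other group.

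**Figure D4:**
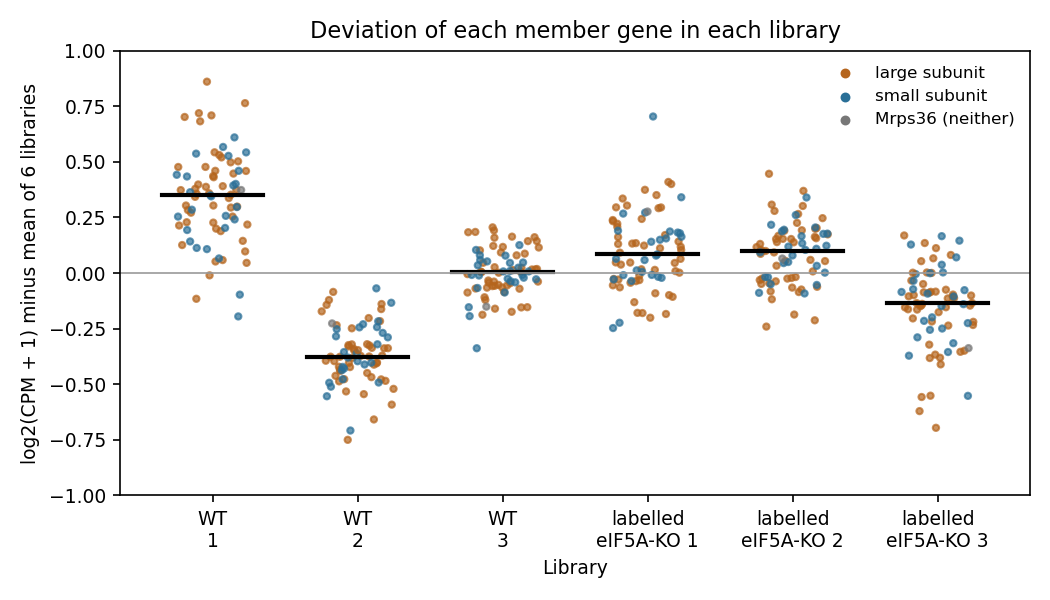
Deviation of each of the 77 tested members from its own mean over 6 libraries, in log2(CPM + 1), with black bars at the median of each library. The bar stands at 0.35 in WT replicate 1 and -0.38 in WT replicate 2, and the libraries labelled eIF5A-KO lie between them.

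The direction of the members was not stable when single libraries were left out. Without WT replicate 1, 72 of 77 members were higher in the libraries labelled eIF5A-KO, with a median log2 fold change of 0.20, and 4 members (5.19%: Mrps6, Mrps18a, Mrps34 and Mrpl58) passed an unadjusted p under 0.05 upward, beside 4.72% of all genes in that fit. With WT replicate 2 left out instead, 62 were lower, with a median of -0.17, and 4 others (5.19%: Mrpl13, Mrpl30, Mrpl47 and Mrpl50) passed that limit downward, beside 4.84% of all genes. Both shares of members lay near those of all genes. The sign of the fold change differed between these fits in 57 members. The smallest adjusted p of any member was 0.326 without WT replicate 1 and 0.529 without WT replicate 2 in edgeR. Leaving out WT replicate 3 or a library labelled eIF5A-KO gave medians from -0.06 to 0.06, and without replicate 3 of the latter 44 members were higher and 33 lower.

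**Figure D5:**
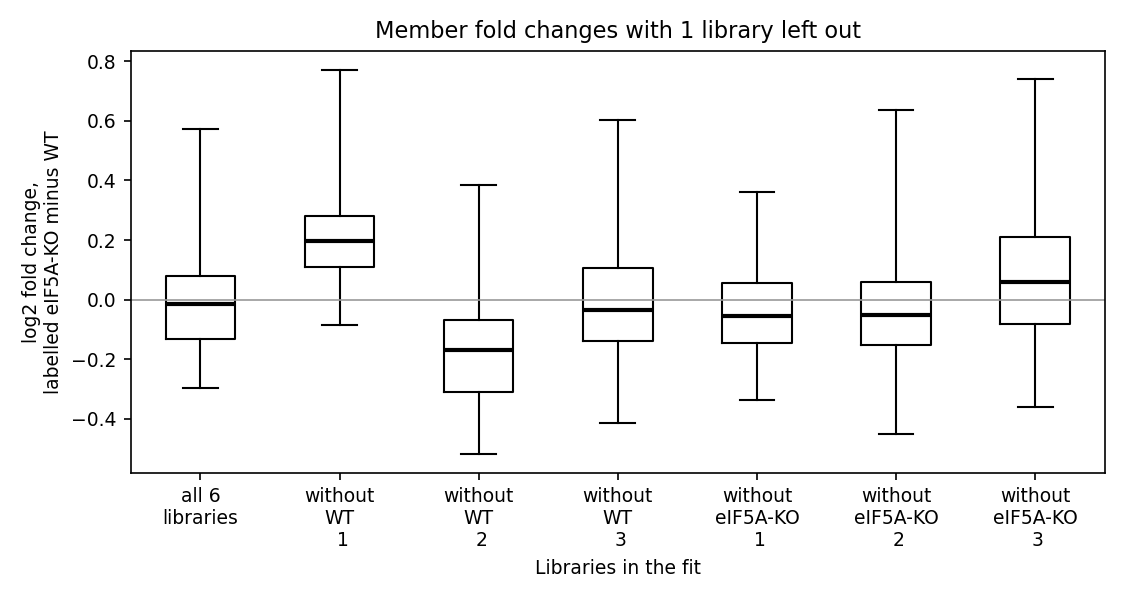
Log2 fold changes of the 77 members with all 6 libraries and with each library left out, as boxes from the lower to the upper quartile, a line at the median and whiskers to the extremes. The median moves from -0.02 to 0.20 without WT replicate 1 and to -0.17 without WT replicate 2.

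Other genes of the same machinery were read from lists. The 5 mitoribosome genes with other names (Dap3, Ptcd3, Chchd1, Aurkaip1 and Gadd45gip1) showed a median of -0.05 on the log2 scale, with 0 past an unadjusted p under 0.05. Their summed level was 452, 288 and 358 CPM in WT and 367, 378 and 314 CPM in the other group, with the same libraries highest and lowest as for the members. Of 27 assembly factors, such as RNA methyltransferases and GTPases of ribosome maturation, 0 passed that limit and the median was 0.03. Of 17 mitochondrial translation factors 0 passed, with a median of -0.07. Tufm, the elongation factor that brings aminoacyl-tRNA to the ribosome, had 143 ± 17.1 CPM in WT and 161 ± 19.8 CPM in the other group (n = 3, edgeR adjusted p = 0.927).

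Of 16 regulators of mitochondrial gene expression, 8 had a higher and 8 a lower mean in the libraries labelled eIF5A-KO (median log2 fold change -0.004). At an unadjusted p under 0.05, 0 were higher and 1 was lower, and 0 passed after adjustment. That gene, Gabpb2, a partner of GABPA, had 54.4 ± 10.8 CPM in WT and 35.9 ± 5.84 CPM in the libraries labelled eIF5A-KO (n = 3, edgeR adjusted p = 0.560). Tfam, which packages and transcribes mitochondrial DNA, had 56.6 ± 8.85 and 46.7 ± 3.56 CPM (n = 3, edgeR adjusted p = 0.869). Ppargc1a, at a low level, had 1.51 ± 0.374 and 2.40 ± 0.202 CPM (n = 3, edgeR adjusted p = 0.799). The ribosomal RNAs of the mitochondrial ribosome varied more between libraries than the transcripts of the member genes. The median SD of log2(CPM + 1) was 0.87 against 0.38 in WT, and 0.54 against 0.17 in the libraries labelled eIF5A-KO. mt-Rnr1 was at 1149, 342 and 375 CPM in WT and 510, 818 and 398 CPM in the other group, and mt-Rnr2 at 1450, 542 and 610 CPM and 700, 1194 and 568 CPM. Both were highest in WT replicate 1 and lowest in WT replicate 2. The poly(A) or ribosomal RNA selection of the library sets how much of these RNAs is recovered, and no source used here gives it for these libraries.

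Cytosolic ribosomal protein genes and nuclear genes of oxidative phosphorylation showed the same order of WT libraries. The median deviation of the 78 cytosolic ribosomal protein genes was 0.54 in WT replicate 1 and -0.41 in WT replicate 2, and that of 83 tested oxidative phosphorylation genes was 0.42 and -0.36. Between the groups, 66 of the 78 cytosolic ribosomal protein genes had a lower mean in the libraries labelled eIF5A-KO (median log2 fold change -0.19), as did 55 of the 83 oxidative phosphorylation genes (-0.10). Of these lists, 0 of 78 and 1 of 83 genes were higher, and 1 and 2 lower, at an unadjusted p under 0.05. These were Rpl17 (lower) among the ribosomal genes, and Cox4i2 (higher), Atp5k and Cox6b2 (lower) among the others, and none passed after adjustment. Myogenic markers ran the other way, at -0.30 in WT replicate 1 and 0.87 in WT replicate 2, and endothelial markers stood at -0.89 and 0.17. Transcripts encoded on mitochondrial DNA took 5.75% of counts in WT replicate 1 and 2.11% to 3.50% in the other libraries. All 12 tested mRNAs encoded there had a lower mean in the libraries labelled eIF5A-KO (median -0.38), with 1 lower at an unadjusted p under 0.05 and 0 after adjustment in edgeR. The part of these differences between libraries in the members' values was not tested.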

How the data were processed

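Bulk RNA-seq of primary myoblasts comprised 3 WT libraries and 3 labelled eIF5A-KO. The authors extracted RNA with TRIzol, built libraries with an NEBNext Ultra kit, mapped reads to mm10 with HISAT and deposited raw read counts per gene. A second table deposited by the authors holds FPKM, scaled between libraries. Counting rules for strand and multi-mapped reads, and the annotation release, are not given in the sources used here. Gene coordinates are those of the table, and 73 of 78 members matched GENCODE M21 (GRCm38).

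Counts were tested with edgeR 4.0.16 in R 4.3.3: filterByExpr, TMM factors, quasi-likelihood test, no covariate, Benjamini-Hochberg adjustment over 14679 genes, threshold 0.05. The code was also run on simulated counts with known changes. These were drawn gene by gene, so that run does not cover genes that vary together, as the members do. CPM used TMM factors, and deviations used log2(CPM + 1). Members and lists were chosen with earlier results of these data known, so lists are described by counts and medians without a test. The members named were those with the 8 smallest p-values, the 5 highest and 5 lowest FPKM, the 3 largest SDs, a fixed list of 15 by role, and those under the filter. Mrps2, and the members past the unadjusted limit with a library left out, were named after their values were seen. Near-identical copies were coding sequences aligned over 50% of their length at 90% identity with blastn 2.17.0, and 24 members had them. Alternatives were other scalings and filters, DESeq2 1.42.0, limma 3.58.1, a replicate block and leaving out each library. Reads carry no molecular identifiers.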

Additional observations from a re-analysis of the deposited data

How the results depend on the processing

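In 17 alternative fits, 0 members had an adjusted p under 0.05, and the smallest adjusted p was 0.326. The number of members higher at an unadjusted p under 0.05 was 1 in place of 0 with library size alone, no expression filter, DESeq2, limma on log2(FPKM + 1), limma on log2(FPKM + 0.1), and scaling to the members' summed counts, an alternative chosen after seeing the data. With a library left out it ranged from 0 to 4, and the number lower from 0 to 4. The share of all genes past that limit also moved with the library left out, from 1.23% to 4.72% higher and from 2.66% to 5.44% lower. In the settings listed with 1 in place of 0, from 1.03% to 2.98% of all genes were higher at that limit. Genes of the whole table past the adjusted limit numbered 3 with all libraries, 249 without a filter, 88 with DESeq2, 24 with the replicate block, 56 without WT replicate 1, 3 without mitochondrial and top 10 genes and 0 in the other fits. The cause was not tested. The median log2 fold change of the members ranged from -0.17 to 0.20 over all alternatives, and the ratio of summed levels from 0.888 to 1.15, all extremes from leaving out a WT library. Against -0.016 with all libraries, the sign of the median also turned with limma-voom (0.018), limma on log2(FPKM + 1) (0.02) and log2(FPKM + 0.1) (0.022), the replicate block (0.013), without eIF5A-KO replicate 3 (0.059) and on members with no shared exon bases and no copy (0.018).

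Whether the replicate numbers pair the libraries is not known. Deviations of same-numbered libraries correlated at 0.103, -0.221 and 0.113, and those of differently numbered libraries at -0.312 to 0.339. With 3 libraries per group, each centred on its group mean, such values cannot exclude a pairing. With the replicate block, 1 member was higher at an unadjusted p under 0.05, 0 were lower, 0 passed after adjustment, and the signs of Mrpl33 (0.021), Mrps18c (0.043) and Mrps36 (0.003) turned.

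Of 31 named members, 19 changed sign in at least 1 fit. Mrpl33 turned to 0.031, 0.024 and 0.033 with limma-voom and limma on log2(FPKM + 1) and log2(FPKM + 0.1). Mrps12 turned to -0.015 with library size alone and -0.007 with the members' scaling. Mrps18c turned to 0.001 without mitochondrial and top 10 genes, 0.004 without a filter, 0.053 with voom, 0.047 and 0.052 on FPKM, and 0.027 with the members' scaling. Mrps36 turned to 0.003 with DESeq2 factors and DESeq2, 0.008 without mitochondrial and top 10 genes, 0.012 without a filter, 0.005 with voom and 0.01 on FPKM. Leaving out single libraries, signs turned for Mrpl52 (-0.432 to 0.013), Mrps21 (-0.138 to 0.252), Mrpl34 (-0.072 to 0.316), Mrpl54 (-0.160 to 0.269), Mrpl28 (-0.084 to 0.294), Mrps35 (-0.238 to 0.074), Mrpl48 (-0.036 to 0.255), Mrps25 (-0.341 to 0.201), Mrps10 (-0.230 to 0.198), Mrpl19 (-0.161 to 0.058), Mrpl14 (-0.496 to 0.245), Mrpl33 (-0.324 to 0.402), Mrpl12 (-0.482 to 0.151), Mrps12 (-0.121 to 0.161), Mrpl3 (-0.260 to 0.014), Mrpl11 (-0.108 to 0.232), Mrps18c (-0.220 to 0.287), Mrps36 (-0.142 to 0.228) and Mrps22 (-0.310 to 0.149). The rest of these 31 kept their sign, but without single libraries Mrps18a ranged from 0.193 to 0.547, Mrpl58 from 0.132 to 0.600, Mrps34 from 0.154 to 0.455, Mrpl47 from -0.499 to -0.051, Mrpl50 from -0.404 to -0.086, Mrpl45 from 0.062 to 0.352, Mrps30 from 0.063 to 0.265, Mrpl10 from 0.034 to 0.174, Mrpl44 from -0.233 to -0.063 and Mrps6 from 0.336 to 0.771. Of the members named after their values were seen, Mrpl13 (-0.272) and Mrpl30 (-0.212) turned to 0.111 and 0.021 without WT replicate 1. With 3 libraries per group, changes inside the intervals given are not excluded. What part the distance between 2 of the WT libraries has in the width of the intervals was not tested.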
